A study of Mus musculus with 17 samples.

Results

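The cytosolic ribosomal protein genes were taken as the rows of the count matrix whose Ensembl identifier belongs to a protein-coding gene named Rpl or Rps with a number and at most 1 further letter out of a, l, x and y, together with Rplp0, Rplp1, Rplp2 and Rpsa. The rule found 80 of the 55471 genes of the matrix, 49 for the large and 31 for the small ribosomal subunit, and 79 of them had at least 1 count. Ribosomal S6 kinases, pseudogenes and mitochondrial ribosomal proteins were not members. RNA was sequenced from the hippocampus of individual male C57BL/6 mice of 3 to 6 months in 17 libraries. CBP-ifKO mice carry floxed Crebbp alleles and the Camk2a-creERT2 transgene, which is active in excitatory neurons of the forebrain, so that other hippocampal cells keep the gene, and their Control littermates lack the deletion. Both genotypes received 5 administrations of tamoxifen, so that no group was free of it. Sal mice were not kindled and had saline on the day of the experiment. PTZ0 mice received the kindling protocol, 45 mg/kg of the convulsant pentylenetetrazole (PTZ) on alternate days, and had saline as the last injection. PTZ45 mice received the same protocol and had 45 mg/kg at the last injection, 45 min before the hippocampus was taken. The paper reports that Control mice came to have seizures under this protocol, whereas no CBP-ifKO mouse reached the progressive seizure stage. Kindled therefore refers below to the protocol and not to its outcome. Each group of genotype and treatment held 3 libraries, except Control PTZ45 with 2.

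Ribosomal proteins form the large and small subunits around the ribosomal RNAs, and their mRNAs are made in near equal proportion and are abundant in most cells. Many of these mRNAs begin with a C followed by a run of pyrimidines, the TOP motif, through which mTOR signalling controls their translation rather than their amount. In neurons, ribosomes and some ribosomal protein mRNAs are also found in dendrites and axons. The genes have given rise to a large number of processed pseudogenes, which are copies of the spliced mRNA put back into the genome.

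The copies bear on what can be counted, since the reads were 50 bases long and the authors kept those with a mapping quality above 10. Over the 80 members, a median of 46.0% of the 50-base windows of the longest coding transcript were also present in a transcript of another gene, with a range from 0 to 95.1%. The share was at or above 50% for 35 members and 0 for 3 members. Rpl7a shared windows with 120 annotated pseudogenes, Rpl21 with 81, Rpl29 with 79 and Rps2 with 71. The coding stretches of the 5 members that changed with PTZ45 are shown from the 5′ end on the coding strand (GRCm38, GENCODE M21), with bases in capitals where a 50-base window of the transcript that holds them also occurs in another gene.
Rpl10, exon 5 of 6, chrX:74272672-74272761, plus strand: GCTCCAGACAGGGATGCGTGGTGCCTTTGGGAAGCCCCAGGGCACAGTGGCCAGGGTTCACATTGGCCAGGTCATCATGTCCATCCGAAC
Rpl21, exon 5 of 6, chr5:146835564-146835653, plus strand: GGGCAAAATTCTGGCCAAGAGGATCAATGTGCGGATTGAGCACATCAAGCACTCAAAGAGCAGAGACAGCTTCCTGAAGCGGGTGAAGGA
Rpl41, exon 4 of 4, chr10:128548390-128548429, minus strand: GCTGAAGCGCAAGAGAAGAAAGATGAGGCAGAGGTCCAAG
Rpsa, exon 4 of 7, chr9:120130118-120130207, plus strand: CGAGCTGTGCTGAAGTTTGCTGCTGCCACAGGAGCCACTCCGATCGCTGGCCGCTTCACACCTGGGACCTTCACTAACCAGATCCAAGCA
Rplp1, exon 3 of 3, chr9:61913432-61913521, minus strand: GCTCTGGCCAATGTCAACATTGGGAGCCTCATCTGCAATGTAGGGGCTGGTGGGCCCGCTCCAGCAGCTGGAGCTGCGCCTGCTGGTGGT
The Rpl21 stretch lay within windows held by 55 other genes, that of Rpsa by 13, that of Rpl10 by 11, that of Rplp1 by 5 and that of Rpl41 by 4. Shared windows covered 100% of the coding bases of Rpl10, Rpl21, Rpl41 and Rpsa, and 82.8% of those of Rplp1. The counted exons of the first 4 were longer than the longest coding transcript (2053 against 855 bases for Rpl10, 3400 against 1856 for Rpl21, 1168 against 582 for Rpl41 and 3170 against 1938 for Rpsa), and exons of Rpl10, Rpl21 and Rpsa overlapped annotated snoRNA genes, features shared by 77 and 24 of the 80 members. Their counts therefore need not follow the amount of coding mRNA, and which exonic bases the reads came from was not tested.

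The level of the members spanned more than 3 orders of magnitude. On the scale of normalized counts per kb of exon, averaged over the 17 libraries, the 8 highest included Rplp1 (2588), Rpl4 (1878), Rps15 (1502), Rpl8 (1271), Rps3 (518), Rps21 (399.8) and Rplp0 (333). The 8 made up 58.2% of the summed level per kb. Rplp1 and Rplp0 belong to the lateral stalk, which recruits the elongation factors to the ribosome. Rps3 lies at the entry of the mRNA into the small subunit, and Rpl4 lines the exit tunnel of the nascent peptide. The 5 lowest were Rpl10l, which had no count in any library, Rpl39l (0.50), Rpl3l (2.0), Rps16 (4.33) and Rpl23a (5.99). Rps16 and Rpl23a are core proteins of the small and large subunit, and in the raw counts of single libraries they reached no more than 10 and 9. Of the members, 24 had a mean under 50 normalized counts and 5 a mean of 1000 or more.

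Members with fewer shared windows had higher counted levels. The median level was 155 normalized counts per kb among the 16 members with under 20% of shared windows, 84.1 among the 37 with 20% to under 60%, and 33.7 among the 27 with 60% or more. The ranges overlapped, and Rplp1, the highest member, had 60% of shared windows. Across the 79 genes with a count the rank correlation of level and share was -0.42 (Spearman), given as a description, since the points share their libraries and the length by which they were divided. Differences in level between members are for this reason values of the counted rows, not of the mRNAs.

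**Figure D1:**
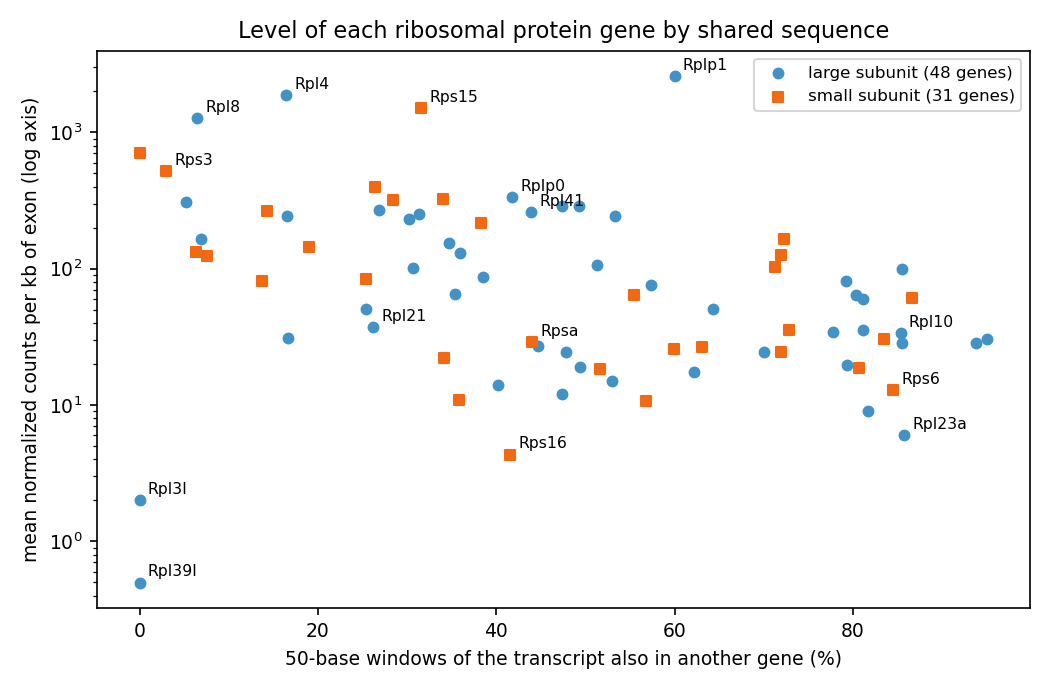
Mean normalized counts per kb of exon over the 17 libraries (log axis) against the percentage of 50-base transcript windows also held by another gene, for the 79 members with a count, large-subunit genes as circles and small-subunit genes as squares. The median falls from 155 in members with under 20% of shared windows to 33.7 in those with 60% or more, with Rplp1 above the rest at 60%.

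The tissue-restricted relatives stayed far below their partners in counts per kb: Rpl3l at 2.0 against 100 for Rpl3, Rpl39l at 0.50 against 243 for Rpl39, and Rpl10l without a count against 33.7 for Rpl10. Rps27l was the exception. This relative of Rps27, known as a target of p53, stood at 81.7 against 26.9 for Rps27, of which 13.7% and 63.1% of the windows were shared with other genes. Rpl3l, known from heart and skeletal muscle, had between 0 and 8 raw counts in single libraries. Rps6, the subunit phosphorylated downstream of mTOR, had 10 to 40 raw counts (12.8 per kb, with 84.6% of shared windows), so that changes in it were hardly measurable here.

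Variation among the mice of a group differed between members. Among the 56 members whose mean reached 50 normalized counts, the pooled within-group SD of the log2 normalized count was smallest for Rps9 (0.09), Rps3 (0.10) and Rps15a (0.10), and largest for Rps2 (0.43), Rps7 (0.40) and Rpl37a (0.26). Rps2 lay at 221, 228 and 121 normalized counts in the Control Sal libraries and at 201 and 100 in the Control PTZ45 libraries. Rps7 lay at 62.1, 24.9 and 67.2 in CBP-ifKO Sal, of which the low value came from replicate 2, the shallowest library.

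Around the annotated start, members shared pyrimidine runs. RefSeq (GRCm38.p6) gave 72 start windows for 60 members, each of 250 bases before and 50 bases after the start. A run of 7 or more C or T that begins with C occurred within 15 bases of the start in 44.4% of the members' windows and in 14.2% of all 32851 windows of the reference. CTTTCC, which can lie inside such a run, was found there in 13.9% and 1.42%. GGAAGT or its reverse complement ACTTCC, the core bound by ETS factors, occurred within the 300 bases in 45.8% and 23.8%, and TATAAA within 40 bases before the start in 0% and 2.31%. Windows of 30 bases centred on the start are shown for Rps6, Rplp2 and Rpl4, which hold a run (in capitals), and for Rpl10, Rpl41 and Rpsa, which hold none.
Rps6: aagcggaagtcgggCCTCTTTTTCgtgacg
Rplp2: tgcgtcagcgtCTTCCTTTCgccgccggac
Rpl4: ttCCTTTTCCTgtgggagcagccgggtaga
Rpl10: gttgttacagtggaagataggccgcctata
Rpl41: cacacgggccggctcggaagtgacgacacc
Rpsa: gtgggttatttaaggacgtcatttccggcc
The absence of a run says only that these letters are not near the start given by this annotation.

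Libraries held 5831992 to 18735643 counts in genes, of which 0.199% to 0.248% fell in the members. Crebbp was lower in each CBP-ifKO library (1061 to 1337 normalized counts) than in each Control library (1824 to 2429). Control Sal and Control PTZ0 were sequenced on 1 lane, Control PTZ45 and CBP-ifKO Sal on another, and CBP-ifKO PTZ0 and CBP-ifKO PTZ45 on the third. Only Control PTZ0 against Sal and CBP-ifKO PTZ45 against PTZ0 were thus compared within a lane, and no genotype comparison was. Of the markers of 10 hippocampal cell types, none passed the test between treatments by DESeq2 or edgeR, with 1 to 9 at an unadjusted p under 0.05 in a comparison, and over all treatments 4 were higher and 11 lower in CBP-ifKO of 48 tested, beside 7.76% and 11.5% of all genes, 4 of the latter among the 5 of CA1 pyramidal cells. The summed level of the CA1 list was 4118 to 4852 normalized counts in Control and 2827 to 3818 in CBP-ifKO libraries. The summed choroid plexus markers lay at 741 and 873 in the Control PTZ45 libraries, and ran from 415 to 44347 over the others. In bulk tissue, fewer cells of a type and less RNA per cell cannot be told apart.

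After the last dose of PTZ, 4 ribosomal protein genes were higher in Control mice. Compared with Control Sal, Rpl10, Rpl21, Rpl41 and Rpsa were higher in Control PTZ45, and Rplp1 was lower (DESeq2, adjusted p under 0.05). Thus 4 of 72 tested members rose, where 0.939% of all genes tested were called higher, and 1 fell, where 0.236% were called lower. Rpl10, which completes the large subunit late in its assembly, had 55.3, 72.6 and 55.1 normalized counts in Control Sal, 52.7, 45.7 and 62.8 in Control PTZ0, and 158 and 106 in Control PTZ45. In the CBP-ifKO libraries it lay at 64.1, 74.7 and 67.2 with Sal, at 49.9, 56.3 and 51.3 with PTZ0, and at 79.9, 61.0 and 63.7 with PTZ45. Both Control PTZ45 libraries thus stood above the other 15. The log2 fold change of Rpl10 against Control Sal was 1.13 (SE 0.27, adjusted p = 0.0031 by DESeq2).

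Rpl21, a protein of the large subunit, had 126, 127 and 118 normalized counts in Control Sal, 124, 105 and 138 in Control PTZ0, and 215 and 237 in Control PTZ45. In CBP-ifKO it had 103, 102 and 123 with Sal, 81.6, 95.5 and 111 with PTZ0, and 110, 107 and 125 with PTZ45. The CBP-ifKO values with PTZ45 lay within the range of the Control mice without the last dose. Its log2 fold change in Control was 0.87 (SE 0.19, adjusted p = 0.00052 by DESeq2).

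Rpl41, a very short peptide of the large subunit at the interface, had 282, 324 and 271 normalized counts in Control Sal, 291, 298 and 331 in Control PTZ0, and 426 and 459.6 in Control PTZ45. In CBP-ifKO it had 274, 324 and 310 with Sal, 212, 297 and 248 with PTZ0, and 237, 287 and 291 with PTZ45. No CBP-ifKO library reached the Control PTZ45 values. Its log2 fold change in Control was 0.60 (SE 0.14, adjusted p = 0.0032 by DESeq2).

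Rpsa, a small-subunit protein also known as a precursor of the laminin receptor, had 95.8, 103 and 67.8 normalized counts in Control Sal, 111, 118 and 90.5 in Control PTZ0, and 185 and 160 in Control PTZ45. In CBP-ifKO it had 66.6, 54.0 and 90.2 with Sal, 74.3, 77.3 and 65.4 with PTZ0, and 71.5, 70.0 and 64.8 with PTZ45. The 3 treatments overlapped in CBP-ifKO. Its log2 fold change in Control was 0.96 (SE 0.23, adjusted p = 0.0040 by DESeq2).

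These calls rest on the 2 Control PTZ45 libraries, and the lane of Control PTZ45 cannot be told apart from the treatment in this comparison. The CBP-ifKO Sal libraries of that lane lay below both Control PTZ45 libraries for each of the 4 genes. Of the 5 genes called, only Rpl10 was called without Control PTZ45 replicate 2, and Rpl21 and Rplp1 without Control PTZ45 replicate 1, where the adjusted p of Rpl10 was 0.539. Without Control Sal replicate 3 the calls of Rpl10, Rpl41 and Rpsa were lost, without Control Sal replicate 1 those of Rpl10 and Rpl41, and without Control Sal replicate 2 that of Rplp1. With the replicate block 1 member of 5 was called. Annotated pseudogenes that share windows with these genes overlapped between the groups in their summed level: those of Rpl21 came to 68.4 to 85.8 normalized counts in Control PTZ45 and 84.9 to 116 in Control Sal, those of Rpsa to 11.95 to 16.8 and 12.3 to 17.9, and those of Rpl10 to 5.43 to 11.5 and 7.23 to 17.2. Among the 56 members with a mean of at least 50, both Control PTZ45 libraries stood above the other 15 for 5, beside 4.73% of the 13041 genes at that level. The fifth was Rpl9, named after its values were seen, with 135 and 119.5 normalized counts in Control PTZ45 and 66.0 to 109 in the other libraries.

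Against Control PTZ0, which differs from Control PTZ45 by the last injection and by the lane, 3 of 72 tested members rose (1.18% of genes called higher) and none fell (0.0667% called lower), with 9 lower at an unadjusted p under 0.05 and 1 lower in edgeR. They were Rpl10 (1.3, SE 0.27, adjusted p = 0.00029), Rpl21 (0.87, SE 0.19, adjusted p = 0.00057) and Rpl41 (0.53, SE 0.13, adjusted p = 0.0074, all log2 by DESeq2). Rpsa differed by 0.70 (SE 0.21, adjusted p = 0.066). Both comparisons share the Control PTZ45 libraries and are not independent. Without Control PTZ0 replicate 1, or without Control PTZ45 replicate 2, 1 of these calls was left.

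**Figure D2:**
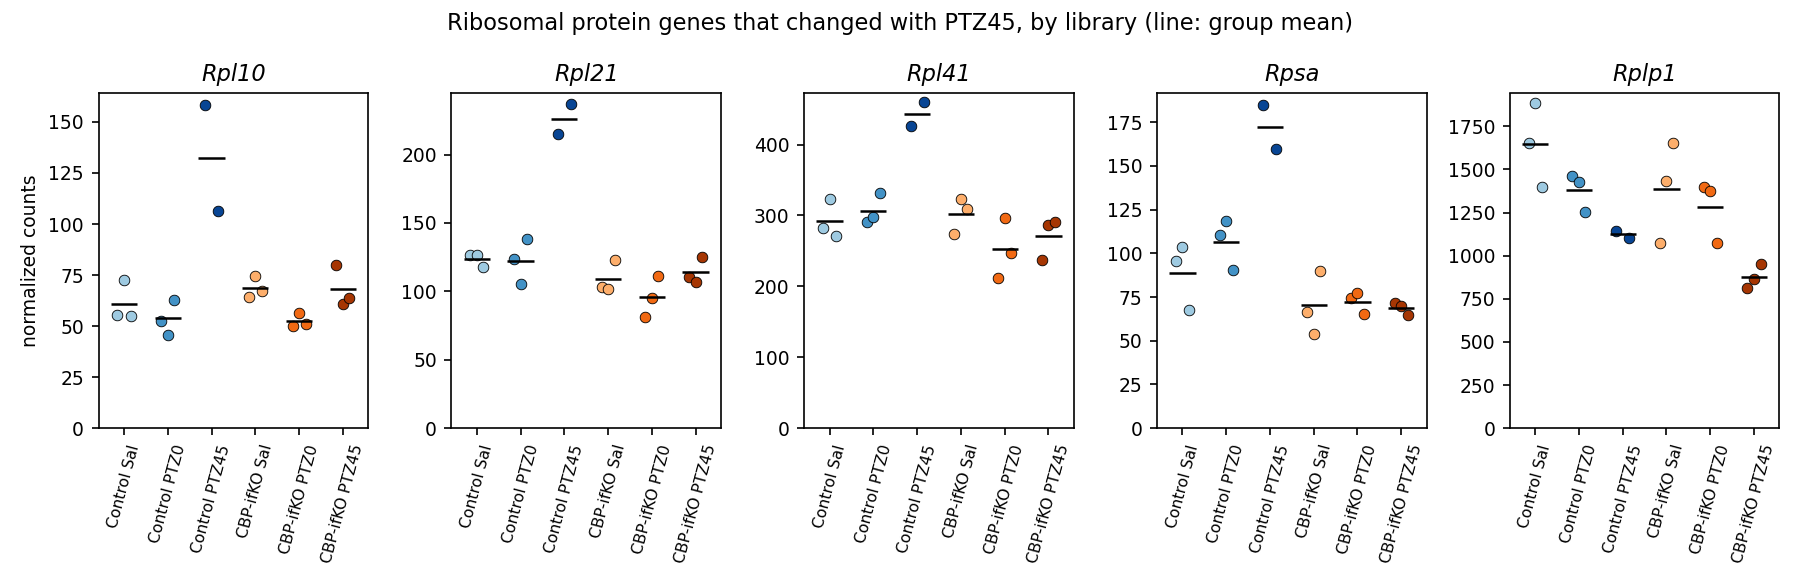
Normalized counts of Rpl10, Rpl21, Rpl41, Rpsa and Rplp1 (linear axes from 0) in the 17 libraries by group, each point a mouse and each line a group mean. For the first 4 genes both Control PTZ45 points lie above the other 15, with 158 and 106 for Rpl10, whereas Rplp1 is lowest in CBP-ifKO PTZ45 at 814 to 954.

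Rplp1, an acidic protein of the stalk and the highest member per kb, was lower after the last dose than with Sal in both genotypes. It had 1655, 1886 and 1399 normalized counts in Control Sal, 1461, 1427 and 1250 in Control PTZ0, and 1143 and 1103 in Control PTZ45. In CBP-ifKO it had 1074, 1434 and 1650 with Sal, 1399, 1373 and 1072 with PTZ0, and 814, 863 and 954 with PTZ45. Within each genotype the PTZ45 libraries lay below all those without the last dose. The log2 fold change against Sal was -0.55 in Control (SE 0.12, adjusted p = 0.00043) and -0.66 in CBP-ifKO (SE 0.13, adjusted p = 0.00088 by DESeq2). Against Control PTZ0 it was -0.30 in Control (SE 0.09, adjusted p = 0.075 by DESeq2) and missed the threshold.

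In CBP-ifKO, Rplp1 was the only member called against Sal, 1 of 74 tested beside 0.208% of genes called lower and 0.086% called higher. Against PTZ0, on the same lane, it was again the only one, 1 of 78 beside 0.0265% lower and 0.0607% higher. Its difference there was -0.55 on the log2 scale (SE 0.11, adjusted p = 0.0010 by DESeq2). The call was lost in edgeR in both comparisons (adjusted p = 0.158 and 0.170), against Sal also when either CBP-ifKO Sal replicate 2 or the first PTZ45 replicate was left out, and against PTZ0 without CBP-ifKO PTZ0 replicate 1 or 2 or CBP-ifKO PTZ45 replicate 1. Rplp1 has a GC content of 57.3% in its exons. After removal of the trend of each library with GC content its fold changes against Sal were -0.38 in Control (adjusted p = 0.070) and -0.51 in CBP-ifKO (adjusted p = 0.0063), and -0.44 against CBP-ifKO PTZ0 (adjusted p = 0.013 by DESeq2).

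The other stalk proteins did not pass the test. Rplp2, the partner of Rplp1, had 284, 241 and 257 normalized counts in Control Sal and 211 and 142 in Control PTZ45 (log2 fold change -0.56, SE 0.19, adjusted p = 0.162 by DESeq2), and in CBP-ifKO it had 200.5, 208 and 274 with Sal and 179, 146 and 184 with PTZ45 (-0.44, SE 0.18, adjusted p = 0.806). Rplp0, which anchors them, had 622, 667 and 528 in Control Sal and 516 and 506 in Control PTZ45 (-0.24, SE 0.13, adjusted p = 0.690). Rps6 differed by 0.09 (SE 0.47) in Control and -0.41 (SE 0.52) in CBP-ifKO.

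Between kindled mice without the last dose and saline mice, no member was called. Between Control PTZ0 and Control Sal, on 1 lane, 0 of 79 were called by DESeq2 and by edgeR, with 1 at an unadjusted p under 0.05 and 0.00843% of all genes called. Between CBP-ifKO PTZ0 and CBP-ifKO Sal 0 of 79 were called by both tools, with 1 at an unadjusted p under 0.05 and 0.0112% of genes called. The median SE of the log2 fold change among the 56 members with a mean of at least 50 was 0.12 and 0.15, so that changes of that order could not be seen in single genes.

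Other genes linked to ribosome production were counted in the same comparison, in which 0.939% of all genes were called higher. Of 17 other TOP mRNAs tested, Tpt1 (2.42, SE 0.23), Snhg1 (0.68, SE 0.18) and Pabpc1 (0.49, SE 0.12) were higher in Control PTZ45 than in Control Sal on the log2 scale and none was lower. Tpt1 encodes the translationally controlled tumour protein, and Snhg1 is a host of snoRNAs. Of 30 ribosome biogenesis genes only Fbl, the methyltransferase of box C/D snoRNPs, was called (1.94, SE 0.25, adjusted p = 9.6e-13 by DESeq2), and of 16 genes of mTOR and translational control only Rheb, the activator of mTOR complex 1 (0.56, SE 0.09). Of the relatives left out by the naming rule, Rpl22l1 was higher (0.78, SE 0.17, adjusted p = 0.00051). In CBP-ifKO, none of these lists had a gene called between PTZ45 and Sal by DESeq2 or edgeR, and 1 gene of them was at an unadjusted p under 0.05. Of 76 mitochondrial ribosomal protein genes tested in Control and 77 in CBP-ifKO, none was called by either tool, with 3 and 1 at an unadjusted p under 0.05.

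The medians over the members were small beside the changes of the called genes. In Control, the median log2 fold change of the members with a count was -0.12 in PTZ45 against Sal, beside 0.01 over all genes tested, and 57 members lay below 0 and 22 above. Against PTZ0 it was -0.14, beside -0.0019 over all genes tested, and moved to -0.083 with GC correction and -0.087 with GC and length correction. The share of counts from the mitochondrial genome was 7.51% and 8.62% in the Control PTZ45 libraries, above the 5.79% to 7.23% of Control Sal and the 6.09% to 6.50% of Control PTZ0, and its part in these medians was not tested. In CBP-ifKO the medians were -0.06 against Sal and 0.00 against PTZ0. The kindling protocol alone, PTZ0 against Sal, gave 0.00 in Control and -0.04 in CBP-ifKO. Both CBP-ifKO medians against Sal changed sign without CBP-ifKO Sal replicate 3, to 0.03 with PTZ45 and 0.04 with PTZ0, and that with PTZ45 was -0.00031 among the members with a mean of at least 50. The 78 mitochondrial ribosomal protein genes had medians of -0.10 in Control PTZ45 against Sal and -0.0021 in CBP-ifKO PTZ45 against Sal. With the trends of GC content and exonic length removed, the members' median in Control PTZ45 against Sal was -0.08. No test was run on these medians.

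**Figure D3:**
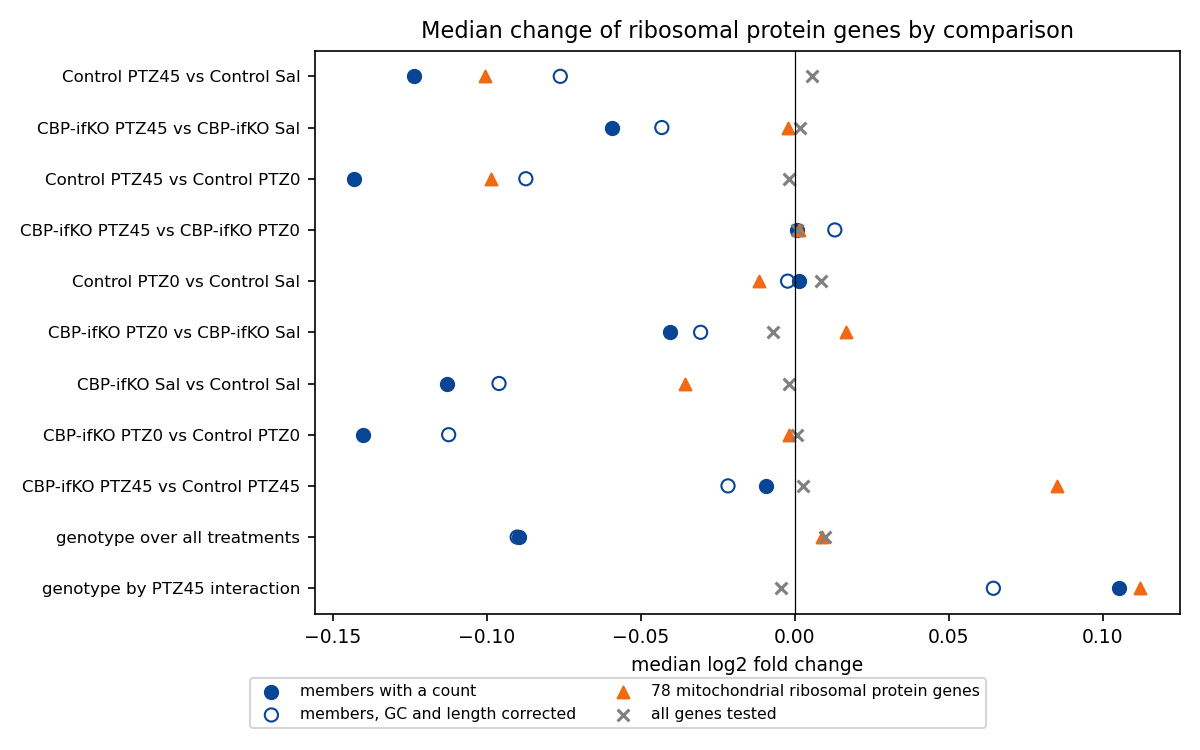
Median log2 fold change for the members with a count before (filled circles) and after (open circles) correction for GC content and exonic length, for 78 mitochondrial ribosomal protein genes (triangles) and for all genes tested (crosses), in each of the 11 comparisons. The members' median is lowest at -0.14 in Control PTZ45 against Control PTZ0 and in CBP-ifKO PTZ0 against Control PTZ0, and the interaction, the CBP-ifKO response minus the Control response, is at 0.11 (0.047 to 0.180 when single libraries were left out).

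The summed level of the members was 29961, 28913 and 27085 normalized counts in Control Sal, 28747, 28336 and 28918 in Control PTZ0, and 26465 and 27748 in Control PTZ45. In CBP-ifKO it was 23831, 24819 and 28826 with Sal, 25178, 26794 and 24614 with PTZ0, and 25204, 24044 and 27628 with PTZ45. The Control and CBP-ifKO libraries overlapped with Sal, through CBP-ifKO Sal replicate 3, and with PTZ45, and were apart with PTZ0.

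The members' level in a library correlated with the trend of other genes with exonic length. For each library, the slope of the deviation of 12978 other genes was taken against the log2 of exonic length and against GC content. The exons of the 56 members were shorter than those of the other genes (median 2093 against 4681 bases) and slightly richer in GC (median 50.5% against 48.1%). The median deviation of the members from their mean over libraries ran from -0.13 to 0.15 on the log2 scale, and its Pearson correlation with the length slope was -0.91 over the 17 libraries. It was -0.94 within the lane of Control Sal and Control PTZ0 and -0.94 within that of CBP-ifKO PTZ0 and PTZ45, with 6 libraries each, and the third lane held too few. With the GC slope the correlation was 0.52 over all libraries, and -0.36 and 0.13 within these lanes. The mean GC slope was lowest in Control PTZ45 and CBP-ifKO PTZ45. Fold changes of other genes had Spearman correlations with GC content of -0.57 in Control PTZ45 against Sal and -0.53 against PTZ0. In CBP-ifKO these were -0.55 and -0.45, and for PTZ0 against Sal they were -0.13 in Control and -0.25 in CBP-ifKO. With the mitochondrial genome share the correlation of the members' median deviation was -0.51 over all libraries, and -0.74 and 0.47 within these lanes. Both axes come from the same libraries and size factors, and the values are given as a description.

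**Figure D4:**
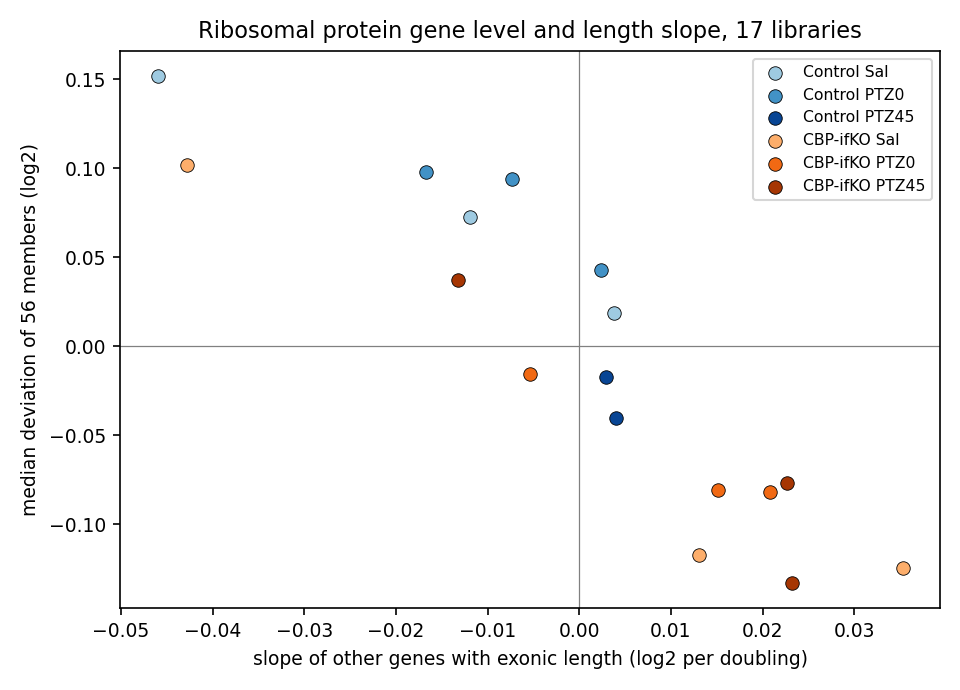
Median log2 deviation of 56 members from their mean (vertical axis) against the slope of other genes with exonic length, in log2 per doubling (horizontal axis), each point 1 of the 17 libraries coloured by group. Libraries in which short genes were higher, such as Control Sal replicate 1 with a slope of -0.05, had the higher members, and the correlation was -0.91.

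In each genotype comparison with a call, the called members were lower in CBP-ifKO. With all 17 libraries and treatment as a covariate, 15 of 73 tested members were lower, beside 11.5% of all genes called lower, and none was higher by DESeq2, by edgeR or at an unadjusted p under 0.05, beside 7.76% called higher. The log2 differences were between -0.15 and -0.70, and the 4 largest were those of Rpsa (-0.70, SE 0.14, adjusted p = 2.6e-05), Rpl21 (-0.48, SE 0.11, adjusted p = 0.00038), Rps19 (-0.30, SE 0.07, adjusted p = 0.00017) and Rpl41 (-0.29, SE 0.10, adjusted p = 0.016, all by DESeq2). The Control PTZ45 libraries enter these pooled values. With PTZ45 the CBP-ifKO and Control means were 68.8 and 172 for Rpsa, 114 and 226 for Rpl21, and 272 and 443 for Rpl41. With PTZ0 they were 72.3 and 106, 96.1 and 122, and 252 and 307. With Sal they were 70.2 and 89.0, 109 and 124, and 302 and 292, so that Rpl41 was not lower. Without Control PTZ45 replicate 1 or 2 the pooled difference of Rpl41 was -0.26 or -0.23. Rps19, which is mutated in Diamond-Blackfan anaemia, had 500.2, 515 and 440 normalized counts in Control Sal, 449, 401 and 430 in Control PTZ0 and 349 and 442 in Control PTZ45. In CBP-ifKO it had 405, 342 and 400 with Sal, 318, 382 and 311 with PTZ0, and 315, 309 and 393 with PTZ45. The genotypes did not overlap with Sal and PTZ0 and overlapped with PTZ45.

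Without CBP-ifKO Sal replicate 1, 9 members were called. With GC and length correction 13 were called, without Rps15 and Rplp1, and with the replicate block 15. Genotype and lane were partly confounded. With lane as a term in the fit, 0 members were called and the SE of these genes rose from 0.05 to 0.14 up to 0.14 to 0.37. Under that fit Rpsa differed by -1.06 (SE 0.37) and Rpl21 by -0.81 (SE 0.29), whereas Rps3 stood at 0.03 (SE 0.14). Only the lane of CBP-ifKO Sal and Control PTZ45 held both genotypes, so the genotype term of this fit rests on that pair. The fit takes treatment differences as equal in both genotypes, and a rise with PTZ45 in Control alone enters the genotype term. Its values are therefore not genotype differences free of treatment. The median over the members was -0.09 without and -0.03 with the lane. Of the other lists, beside the 11.5% of all genes called lower and 7.76% called higher, 4 of 18 TOP mRNAs were lower (Gas5 -0.26, Eif3h -0.21, Nap1l1 -0.18 and Eif4b -0.16) and none higher, of 30 biogenesis genes 2 were lower and 2 higher, of 17 mTOR genes 3 were lower and 1 higher, and of 77 mitochondrial ribosomal protein genes none was lower and 1 higher. The CA1 marker levels given above moved with genotype in the same libraries. The median log2 difference of the other markers was -0.15 for oligodendrocytes and for interneurons, -0.13 for microglia, -0.11 for astrocytes and -0.03 for CA3 cells. It was 0.01 for endothelium, 0.04 for dentate granule cells, 0.12 for excitatory neurons and 1.75 for choroid plexus. The part of these marker levels in the result was not tested.

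**Figure D5:**
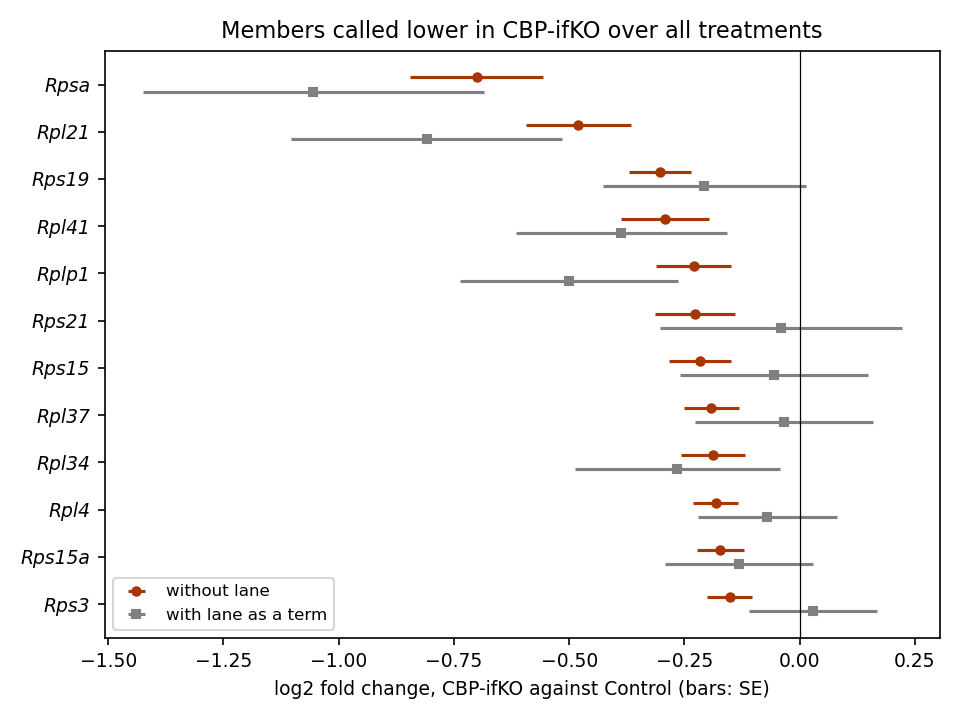
Log2 fold change of CBP-ifKO against Control for 12 of the 15 members called lower over all treatments, without the lane (circles) and with lane as a term (squares), bars giving the SE. Without the lane all 12 lie below 0, from -0.15 to -0.70. With it the bars widen to 0.14 to 0.37 and Rps3 lies at 0.03.

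Within treatments the calls were few and differed in name. With Sal, 0 of 66 tested members were called by DESeq2 or edgeR (2.04% of all genes were called in either direction), with 8 lower and none higher at an unadjusted p under 0.05. Without CBP-ifKO Sal replicate 3, which had the highest members of its group, 5 were called. With PTZ0, 4 of 54 were lower, beside 5.25% of genes called lower: Rpl26 (-0.40, SE 0.11, adjusted p = 0.0059), Rps15 (-0.30, SE 0.10, adjusted p = 0.033), Rpl4 (-0.23, SE 0.07, adjusted p = 0.011) and Rps3 (-0.23, SE 0.06, adjusted p = 0.0075, all by DESeq2). Rpl26, known for binding the p53 mRNA, had 479, 433 and 496 normalized counts in Control PTZ0 and 359, 358 and 352 in CBP-ifKO PTZ0. Rps3 had 2523, 2508 and 2694 in Control PTZ0 and 2163, 2248 and 2194 in CBP-ifKO PTZ0. No member was called without Control PTZ0 replicate 3 or without CBP-ifKO PTZ0 replicate 3, 1 without Control PTZ0 replicate 1 or 2, and 2 without CBP-ifKO PTZ0 replicate 1. Rps15, whose exons have a GC content of 61.0%, was not called after GC correction (-0.20, adjusted p = 0.205), after GC and length correction (-0.18, adjusted p = 0.240) or in edgeR (adjusted p = 0.062), Rpl4 was not called in edgeR (adjusted p = 0.064), and none of the 4 was called in a single fit of all 17 libraries.

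With PTZ45, 5 of 64 tested members were lower in CBP-ifKO, beside 2.82% of genes called lower. They were the 5 that had changed in Control: Rpsa (-1.32, SE 0.24, adjusted p = 5.6e-06), Rpl21 (-0.98, SE 0.20, adjusted p = 0.00014), Rpl10 (-0.96, SE 0.28, adjusted p = 0.022), Rpl41 (-0.70, SE 0.15, adjusted p = 0.00047) and Rplp1 (-0.36, SE 0.11, adjusted p = 0.039, all by DESeq2). This comparison uses the same Control PTZ45 libraries as the response in Control. The call of Rplp1 was lost in edgeR (adjusted p = 0.052), with the filter on low counts (adjusted p = 0.051), after GC and length correction (-0.28, adjusted p = 0.102) and in a single fit of all 17 libraries (adjusted p = 0.179). Leaving out either Control PTZ45 library left 1 call, and leaving out CBP-ifKO PTZ45 replicate 1 or 2 left 3.

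Whether the response to PTZ45 against Sal differed between genotypes was tested with an interaction term over 11 libraries. The response of Rpl41 was lower in CBP-ifKO than in Control by 0.75 on the log2 scale (SE 0.19, adjusted p = 0.032 by DESeq2), 1 of 76 tested members, beside 0.329% of genes called lower. Rpl10 differed by -1.13 (SE 0.35, adjusted p = 0.274), Rpsa by -1.03 (SE 0.33, adjusted p = 0.397) and Rpl21 by -0.82 (SE 0.25, adjusted p = 0.266), with unadjusted p-values of 0.0011, 0.0018 and 0.0011 by DESeq2. For these 3 genes a difference of response was thus not shown over all genes tested. The fall of Rplp1 differed by -0.11 (SE 0.19), and that of Rplp2 by 0.12 (SE 0.26). The call of Rpl41 was lost in edgeR (adjusted p = 0.106) and when any of 8 of the 11 libraries was left out, among them either Control PTZ45 library (adjusted p = 0.246 and 1.0).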

How the data were processed

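Hippocampal total RNA of 17 mice was sequenced as 50-base single reads. The authors trimmed reads (Trim Galore 0.6.4), aligned them to GRCm38 with STAR 2.6.1, kept mapping quality above 10 and deposited raw counts per Ensembl gene over exons, with each gene's exonic length in bases. The strand setting was not given in the sources used here. One count column (1), named like a replicate of Control PTZ45, matched no sample label and was not used, so that this group had 2 libraries. Symbols, GC content and shared windows came from GENCODE M21 (99.57% of identifiers matched). The members, lists and tests were chosen with earlier results of these data known.

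The main test was the Wald test of DESeq2 1.42.0 (R 4.3.3), the study's method, fitted on the counts of all genes of the groups compared, with Benjamini-Hochberg adjustment over all genes and independent filtering, called at 0.05. Treatment was a covariate in the genotype fit over all libraries. Alternatives were edgeR 4.0.16 quasi-likelihood, TMM size factors, a filter of 10 counts in 2 libraries, a single fit of all libraries, the replicate number as a block, GC and length correction of size factors, lane as a term, added relatives, and leaving out each library. Tests were tried on simulated counts first. Normalized counts are counts divided by DESeq2 size factors over the 17 libraries. Depth was 5831992 to 18735643 counts a library.

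Named were, per comparison, up to 5 called members per direction with the largest change (mean of at least 50), the 8 highest and 5 lowest per kb, the stalk genes, Rpsa and Rps6, pairs of a gene and its l relative, and the 3 largest and smallest spreads. Some members the rule would name are not reported here. In other lists the called genes with the largest change were named. Replicates of all groups differed beyond counting noise. P-values weigh a difference between groups against the spread between these mice as each model estimates it. In most comparisons that difference includes the lane.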

Additional observations from a re-analysis of the deposited data

Results flagged for a closer look

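The response of Rpl41 to PTZ45 against Sal differed between the genotypes by the interaction term (CBP-ifKO minus Control, -0.75 on the log2 scale, SE 0.19, adjusted p = 0.032 by DESeq2, with adjusted p-values from 0.0043 to 1.0 over 19 alternatives). It was 0.60 in Control, where both PTZ45 libraries lay above the 3 Sal libraries, and -0.15 (SE 0.15) in CBP-ifKO, where the groups overlapped. No group held 4 or more libraries, so that single libraries were not tested as outliers.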

How the results depend on the processing

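Over all alternatives, 195 of 200 values of the members' median moved by less than 1 SD between replicate libraries (0.027 to 0.110 on the log2 scale by comparison), changes of sign included, 126 of 178 counts of called members stayed within 1.5 times the reported count, and 411 of 570 fold changes of the called members reported kept direction and call, 158 lost the call and 1 changed direction. In edgeR 0 members were called in CBP-ifKO PTZ45 against Sal and against PTZ0 and in the interaction, 5 in Control PTZ45 against PTZ0, and 2 between genotypes with PTZ0. With the replicate block, 1 member was called in Control PTZ45 against Sal, 0 in Control PTZ45 against PTZ0, 0 in CBP-ifKO PTZ45 against PTZ0, 2 between genotypes with PTZ0, and 0 with PTZ45 and in the interaction, and with GC correction added to the block these counts were 0, 0, 0, 2, 0 and 0. No pairing of the mice by replicate number was seen: of 24 same-numbered pairs 8 correlated above 0.1 (range -0.52 to 0.48), and 9 of 36 library checks were best with their own number. The values of the 2 Control PTZ45 libraries mirror each other in this check, and groups this small cannot exclude a pairing. In Control PTZ45 against PTZ0, GC correction gave 5 calls and a median of -0.083, GC and length correction 5 and -0.087, GC correction with the replicate block a median of -0.062, and members with a mean of at least 50, chosen after seeing the data, a median of -0.116. A single fit of all 17 libraries called 0 between genotypes with PTZ0. Lane as a term called 0 over all treatments, with Rps3 at 0.029. With close relatives added, 2 were called in the interaction, through Rpl22l1. The causes were not tested.

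Leaving out each library gave 1 to 4 called members in Control PTZ45 against Sal, 1 to 3 against PTZ0, 0 to 1 in CBP-ifKO PTZ45 against Sal and against PTZ0, 0 to 5 between genotypes with Sal, 0 to 6 with PTZ0, 1 to 4 with PTZ45, 9 to 18 over all treatments, and 0 to 1 in the interaction. The median between genotypes with PTZ0 ran from -0.148 to -0.106, with Sal from -0.197 to -0.048, over all treatments from -0.120 to -0.070, in Control PTZ45 against Sal from -0.163 to -0.084 and against PTZ0 from -0.154 to -0.133, and in the interaction from 0.047 to 0.180. The median took both signs in CBP-ifKO PTZ45 against Sal (-0.109 to 0.034) and against PTZ0 (-0.049 to 0.066), in CBP-ifKO PTZ0 against Sal (-0.097 to 0.042), in Control PTZ0 against Sal (-0.042 to 0.031) and between genotypes with PTZ45 (-0.070 to 0.039).

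Control PTZ45 had 2 libraries, lanes were tied to groups, and 24 members had too few counts for changes of moderate size to be seen. Counts of members with copies elsewhere reflect only reads that the authors' mapping filter kept.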
